A study of Homo sapiens with 94 samples.

Results

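Activins are secreted dimers of inhibin beta subunits that belong to the TGF-beta superfamily. They bind a type II receptor, which recruits and phosphorylates a type I receptor, and the type I receptor then phosphorylates SMAD2 and SMAD3. Follistatin (FST) and follistatin-like 3 (FSTL3) bind activins outside the cell and keep them from their receptors, and in many tissues activin signaling itself raises the expression of both antagonists. To describe this system in mesothelioma xenografts given a TEAD inhibitor, 9 genes were chosen by their symbols, with earlier results of these data known, of 20239 genes in the table. The genes are the ligand subunits INHBA and INHBB, the follistatin family genes FST, FSTL3 and FSTL1, the type I receptors ACVR1 and ACVR1B and the type II receptors ACVR2A and ACVR2B. All 9 were present in the table, and all 9 passed the filter on low values described below.

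The tumors were subcutaneous xenografts of NCI-H226, an established human line of malignant pleural mesothelioma that carries an NF2 deletion, so every group shared the loss of this activator of the Hippo pathway. SCID mice, which lack functional B and T lymphocytes but keep myeloid cells, fibroblasts and vessels of their own, received a single dose of K-975 by mouth at 30, 100 or 200 mg/kg, vehicle (ethanol, Solutol and glucose solution), or nothing. The vehicle group and the 200 mg/kg group were given 20 mL/kg, and the groups at 100 and 30 mg/kg 10 mL/kg, so the lower doses had no vehicle group of their own volume. K-975 forms a covalent bond inside the palmitate-binding pocket of TEAD transcription factors, with which the coactivators YAP1 and TAZ activate their target genes. Tumors were taken in 3 studies, at 1 h, at 3-6 h and at 24 h, and 94 libraries were made from separate animals in 19 groups of 5, except for 4 vehicle tumors at 24 h. The 3-6 h study held 2 cage groups for vehicle and for each dose, and the labels do not give which cage group was taken at 3 h and which at 6 h. At 1 h and 24 h every group was housed as a single cage group, and the cage cannot be told apart from the treatment. All tumors came from 1 cell line.

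Expression was measured by RNA-seq after target enrichment and is given as FPKM, which scales fragments to transcript length and library size. Capture by probes also enters the values, so a difference in FPKM between genes need not be a difference in RNA. POLR2A, a gene that every cell uses, was at most 3.96 FPKM in any library. The depth of the libraries is unknown. Genes that reached an FPKM of 1 numbered 11299 to 11620 in 91 libraries and 695, 7163 and 8497 in the other 3, which were called shallow. The shallow libraries were replicate 1 of 30 mg/kg at 24 h, replicate 5 of 100 mg/kg at 24 h and replicate 1 of 200 mg/kg at 1 h. They were left out of the fit, which tested the 12995 genes that reached an FPKM of 1 in 4 or more libraries, and results with them are given where calls rest on this choice. A gene is said to be called when its adjusted p in limma is under 0.05. All 9 mesothelial markers, among them MSLN and CALB2, had a median FPKM of at least 1, and the 5 muscle and adipose markers were at most 0.18 FPKM in sum in any library. Of the stromal lists, 3 of 7 fibroblast, 2 of 4 endothelial and 2 of 5 leukocyte markers reached a median of 1 FPKM. Their medians were 560 (COL1A1), 267 (COL3A1), 32.0 (PDGFRB), 63.9 (KDR), 1.09 (CDH5), 139 (CD68) and 2.59 FPKM (ITGAM). By contrast, COL1A2 was listed at 0 in 85 of 91 libraries, PECAM1 in 79, ADGRE1 in 76 and LYZ in 83. How reads from mouse cells were treated is not given in the sources used here.

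All 9 genes are protein coding, and the table gives their loci in GRCh38 coordinates. The ligand subunit genes lie at chr7:41667168-41705834 on the minus strand (INHBA) and chr2:120346143-120351808 on the plus strand (INHBB). The follistatin family genes lie at chr5:53480409-53487134 on the plus strand (FST), chr19:676365-683399 on the plus strand (FSTL3) and chr3:120392293-120451253 on the minus strand (FSTL1). The type I receptor genes lie at chr2:157736444-157875862 on the minus strand (ACVR1) and chr12:51951667-51997078 on the plus strand (ACVR1B). The type II receptor genes lie at chr2:147844517-147930826 (ACVR2A) and chr3:38453851-38493142 (ACVR2B), both on the plus strand.

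Since K-975 acts on TEAD, the 250 bases before each start of the members in RefSeq (GRCh38.p14, 12 starts of 9 genes) were searched for 3 short motifs on both strands. The TEAD letters GGAATG were found for ACVR1 and ACVR2B, against 11.9% of all promoters of this length. The AP-1 letters TGANTCA were found for FST and ACVR1, against 6.57% of all promoters. The SMAD box letters CAGACA were found for ACVR1 and ACVR1B, against 13.6% of all promoters. These shares count single windows, while a member is named for a match at any of its starts. No window held more than 1 of the motifs, and those of ACVR1 lay at 3 separate starts. The stretch of FST with its AP-1 letters in capitals (chr5:53480457-53480486, plus strand) is shown because FST had the largest difference between treated and vehicle tumors, and it lies in a first exon of FST in GENCODE 29, upstream of the RefSeq start. The windows of the ligand subunit genes INHBA and INHBB are shown without bases of annotated exons, and neither holds any of the 3 motifs. They cover chr7:41703109-41703340 on the minus strand (INHBA) and chr2:120345886-120346135 on the plus strand (INHBB).
FST: ggaaatgtcaccTGATTCAcactgaacttt
INHBA: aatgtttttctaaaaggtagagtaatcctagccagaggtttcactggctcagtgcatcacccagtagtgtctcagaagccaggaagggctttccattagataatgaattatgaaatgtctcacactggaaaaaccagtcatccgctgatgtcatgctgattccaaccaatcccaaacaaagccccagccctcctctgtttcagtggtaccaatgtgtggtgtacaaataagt
INHBB: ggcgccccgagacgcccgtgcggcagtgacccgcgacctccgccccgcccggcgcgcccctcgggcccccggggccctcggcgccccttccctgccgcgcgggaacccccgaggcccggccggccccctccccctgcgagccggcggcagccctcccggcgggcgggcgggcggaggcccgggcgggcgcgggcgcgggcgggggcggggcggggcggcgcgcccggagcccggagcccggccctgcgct
The INHBB window of 250 bases was 89.6% G and C, and the INHBA window 42.8%. These matches describe letters in a window and are no measure of binding.

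The follistatin-related genes FSTL1 and FSTL3 and the activin A subunit INHBA had the highest FPKM of the members in tumors without K-975. Capture by probes also enters this order. Over the 34 untreated and vehicle tumors, FSTL1, a secreted glycoprotein that shares the follistatin domain, had a median of 524 FPKM (367 to 711). FSTL3, an activin antagonist, had a median of 107 FPKM (76.1 to 137), and INHBA a median of 58.1 FPKM (41.2 to 99.5). The ranges of FSTL3 and INHBA overlapped, and that of FSTL1 was apart from both.
The receptors had lower FPKM. ACVR1, a type I receptor of activins and bone morphogenetic proteins, had a median of 15.6 FPKM (12.5 to 19.6). The activin type I receptor ACVR1B had a median of 7.04 FPKM (4.00 to 15.5), and the type II receptors ACVR2B and ACVR2A had medians of 7.45 FPKM (4.08 to 10.9) and 7.23 FPKM (3.89 to 12.7). These 3 neighbours in the order did not differ beyond their spread.
INHBB, the activin B subunit, had a median of 2.13 FPKM (0.529 to 3.61), and FST a median of 2.61 FPKM with 1 tumor listed at 0 and a highest value of 12.5 FPKM. Both lay near the filter on low values, and FST varied most, with a coefficient of variation of 94.6% against 14.6% for FSTL1 over the same tumors.

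At 24 h after 200 mg/kg, FST, FSTL1 and INHBB were lower than in vehicle tumors, and none of the other 6 members was called. The members were chosen with this study's results known, so the comparison at 24 h is a description and no p is given for it. The 3 calls among 9 members were all lower, beside 7.23% of all genes tested that were called and 3.53% that were called lower. With all 94 libraries in the fit no gene of the table was called in this comparison, members included, although the libraries compared were the same 9, so the calls depend on leaving out the shallow libraries.

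FST showed the largest difference. It measured 11.4, 7.81, 6.32 and 4.21 FPKM in the 4 vehicle tumors and 1.83, 1.69, 2.01 and 0.36 FPKM in 4 of the tumors given 200 mg/kg, and it was listed at 0 in the fifth tumor. Each of the 5 treated values was lower than each vehicle value. The log2 fold change, on the scale of log2(FPKM + 1), was -2.01 (SE 0.57, 95% interval -3.14 to -0.89). It was -3.14 (SE 1.01) with a pseudocount of 0.1, and the mean FPKM of the treated tumors was 0.159 times that of the vehicle tumors. A value of 0 need not mean that RNA was absent, since POLR2A was listed at 0 in 40 libraries. POLR2A was low throughout, at most 3.96 FPKM, so its zeros do not show how the 0 of FST arose. Leaving out each tumor of the 2 groups in turn, FST was called in 5 of 9 fits, and the call was lost without replicate 4 (-1.76) or 5 (-1.88) of 200 mg/kg and without replicate 1 (-1.80) or 2 (-1.97) of vehicle.
The vehicle tumors of this study were themselves high in FST. The untreated tumors of the same study measured 2.68, 1.26, 0.842, 2.70 and 12.5 FPKM, so 4 of 5 lay below every vehicle tumor and the fifth above them. Set against untreated in place of vehicle tumors, the log2 fold change of FST at 200 mg/kg was -0.92 (SE 0.53) and was not called.

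FSTL1 was 541 ± 36 FPKM (SD, n = 4) in vehicle tumors and 366 ± 63 FPKM (SD, n = 5) at 200 mg/kg. The vehicle tumors measured 553, 531, 582 and 497 FPKM and the treated tumors 343, 476, 343, 354 and 314 FPKM, with no overlap. The log2 fold change was -0.58 (SE 0.14, 95% interval -0.86 to -0.29), and FSTL1 was called in all 9 fits that left out 1 tumor and also against untreated tumors (513 ± 66 FPKM, SD, n = 5).
FSTL3, the second activin antagonist, was 110.4 ± 11.0 FPKM (SD, n = 4) in vehicle tumors and 87.0 ± 8.7 FPKM (SD, n = 5) at 200 mg/kg. Of the treated tumors, 4 of 5 lay below all vehicle tumors, and the log2 fold change of -0.34 (SE 0.14) was not called. FST, FSTL1 and FSTL3 are among 249 positive effector genes of YAP1 and TAZ that the study drew from other public datasets, and the other 6 members are neither there nor among its 233 negative effectors.

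INHBB measured 3.44, 2.67, 2.81 and 2.82 FPKM in vehicle tumors and 1.38, 1.19, 1.26, 1.67 and 1.14 FPKM at 200 mg/kg, again with no overlap. Its log2 fold change was -0.76 (SE 0.22, 95% interval -1.20 to -0.31). It was called in 5 of 9 fits that left out 1 tumor, and the call was lost without replicate 1 (-0.77) or 5 (-0.73) of 200 mg/kg and without replicate 1 (-0.70) or 3 (-0.77) of vehicle. Against untreated tumors, which measured 1.29, 2.50, 2.47, 1.58 and 2.76 FPKM, the log2 fold change was -0.40 (SE 0.21) and was not called.
INHBA measured 51.1, 55.1, 52.2 and 45.7 FPKM in vehicle tumors and 27.2, 24.6, 41.2, 62.4 and 33.8 FPKM at 200 mg/kg. Replicate 4 of the treated tumors, at 62.4 FPKM, lay above all vehicle tumors and the other 4 lay below them. The log2 fold change of -0.50 (SE 0.26) was not called. Against untreated tumors (64.3 ± 15.7 FPKM, SD, n = 5) it was -0.80 and was called.

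The 4 receptors had positive fold changes at this dose, and none was called. ACVR2A was 5.52 ± 0.73 FPKM (SD, n = 4) in vehicle tumors and 8.24 ± 0.85 FPKM (SD, n = 5) at 200 mg/kg, and all 5 treated tumors lay above all vehicle tumors. Its log2 fold change was 0.51 (SE 0.22, 95% interval 0.07 to 0.94). ACVR1, ACVR1B and ACVR2B had log2 fold changes of 0.21 (SE 0.13), 0.18 (SE 0.27) and 0.16 (SE 0.17), with overlapping groups. In all, 4 of the 9 members showed no overlap between 200 mg/kg and vehicle at 24 h, 3 below and 1 above, beside 7.42% of all genes tested.

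**Figure D1:**
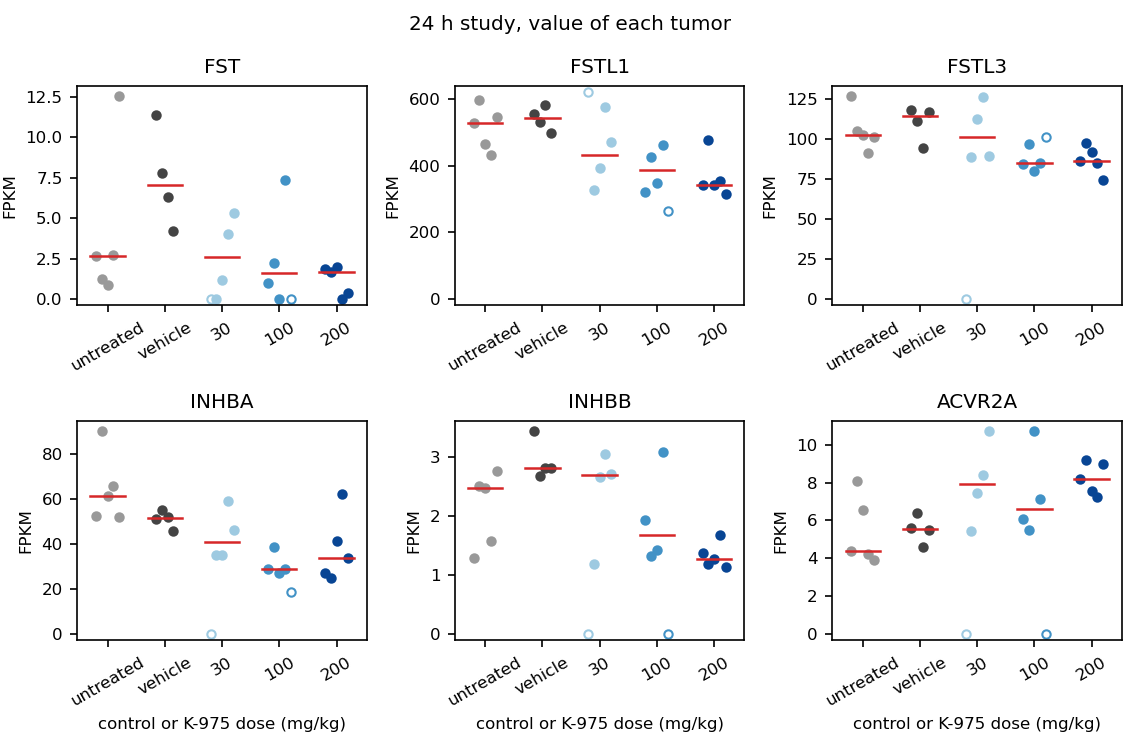
FPKM of 6 genes in each tumor of the 24 h study by control or dose of K-975 in mg/kg, with open circles for the 2 shallow libraries and the median of the other tumors as a red line. For FST, FSTL1 and INHBB all 5 tumors at 200 mg/kg lie below all 4 vehicle tumors, and for ACVR2A all 5 lie above.

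At the lower doses no member was called at 24 h, while 1.02% of genes tested were called at 100 mg/kg and 0.0308% at 30 mg/kg. As a description, 5 of 9 members had an unadjusted p under 0.05 by limma at 100 mg/kg, beside 14.1% of all genes, and 2 of 9 at 30 mg/kg, beside 9.97%. The members were chosen with results of this study known, so counts of members at 24 h are no test of them. FST measured 1.02, 2.22 and 7.34 FPKM in 3 tumors at 100 mg/kg and was listed at 0 in the other, with a log2 fold change of -1.57 (SE 0.60). At 30 mg/kg it measured 1.17, 4.04 and 5.31 FPKM in 3 tumors and was listed at 0 in the other (-1.48, SE 0.60). At both doses 3 of 4 tumors lay below all vehicle tumors.
FSTL1 was 389 ± 65.5 FPKM (SD, n = 4) at 100 mg/kg, below all vehicle tumors, and 442 ± 108 FPKM (SD, n = 4) at 30 mg/kg, with log2 fold changes of -0.49 (SE 0.15) and -0.32 (SE 0.15). Without replicate 4 of 100 mg/kg, FSTL1 was called at that dose (-0.57).
INHBA measured 29.0, 38.8, 27.0 and 28.7 FPKM at 100 mg/kg, also below all vehicle tumors, with a log2 fold change of -0.72 (SE 0.28), and was called at -1.02 against untreated tumors. At 30 mg/kg its log2 fold change was -0.24 (SE 0.28). Members without overlap with vehicle were 2 of 9 at 100 mg/kg and 0 of 9 at 30 mg/kg, beside 7.10% and 6.70% of all genes.
No member was called between 200 and 100 mg/kg (0 of 9 at an unadjusted p under 0.05 by limma, beside 6.75% of all genes), where 0% of genes were called, or between 100 and 30 mg/kg (1 of 9, beside 5.25%), where 0.0077% were, so the order of the 3 doses was not resolved for any member. The 3 doses share their vehicle tumors.

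Levels of other cell types were set beside these results for the 24 h study. The summed FPKM of the 9 mesothelial markers was 2949 to 3121 in vehicle and 3413 to 4300 at 200 mg/kg, with no overlap. Of the 9, 3 (MSLN, CALB2 and KRT19) were called higher and 0 lower, beside 480 of 12995 genes tested that were called higher. KRT5 had a mean of 726 FPKM in vehicle and 1041 FPKM at 200 mg/kg and was not called, nor was KRT7 (0.33). WT1, PDPN, KRT18 and UPK3B had log2 fold changes of -0.10, -0.07, -0.04 and -0.03 and were not called. The sums of the other lists overlapped between 200 mg/kg and vehicle. They were 774 to 1420 against 873 to 1070 FPKM for the fibroblast list and 26.8 to 92.2 against 31.0 to 67.8 FPKM for the endothelial list. The leukocyte list summed to 127 to 207 against 146 to 223 FPKM. The proliferation markers MKI67 and TOP2A summed to 32.4 to 63.5 against 45.2 to 66.3 FPKM. The part of these levels in the results was not tested. In bulk tumors, fewer cells of a type and less RNA per cell cannot be told apart.

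In the 3-6 h study INHBA was the member with the largest difference between treated and vehicle tumors. INHBA was 56.7 ± 13.8 FPKM (SD, n = 10) in vehicle tumors, with a lowest, median and highest value of 41.2, 58.1 and 75.8 FPKM. At 200 mg/kg it was 35.2 ± 13.2 FPKM (SD, n = 10), with 19.4, 30.1 and 65.8 FPKM. Of the 10 treated tumors, 7 lay below every vehicle tumor and 3 within their range. The log2 fold change was -0.71 (SE 0.17, 95% interval -1.06 to -0.36), with an unadjusted p of 0.000112 and an adjusted p of 0.0606 by limma, so INHBA was not called. This p rests on the spread of tumors within cage groups, and each arm held 2 cage groups. Of all genes tested, 0.331% were called between the vehicle cage groups and 0.0693% between 200 mg/kg and vehicle.
At 100 mg/kg INHBA was 40.3 ± 12.4 FPKM (SD, n = 10), with a log2 fold change of -0.51 (SE 0.17, adjusted p = 0.215 by limma). At 30 mg/kg it was 47.2 ± 18.6 FPKM (SD, n = 10), with -0.31 (SE 0.17, adjusted p = 0.756). Over the 20 fits that left out 1 tumor, the adjusted p at 200 mg/kg ranged from 0.0247 to 0.228 and INHBA was called in 3 of them, without replicate 3 of cage group 4, replicate 1 of vehicle cage group 2 or replicate 2 of vehicle cage group 3. INHBA was not called at 200 mg/kg under any other alternative. By limma its adjusted p was 0.270 with only the groups compared, and 0.241 and 0.190 with vehicle cage group 2 or 3 alone as control. With a pseudocount of 0.1, without the filter, with other scaling or eBayes settings or against untreated tumors, it was 0.0599 to 0.0846.
Within the 200 mg/kg arm, cage group 5 measured 27.4, 27.1, 32.1, 28.2 and 36.7 FPKM, all below every vehicle tumor, and cage group 4 measured 42.3, 44.7, 65.8, 28.1 and 19.4 FPKM. Against all 10 vehicle tumors the log2 fold change was -0.85 (SE 0.21, adjusted p = 0.0508 by limma) for cage group 5 and -0.57 (SE 0.21, adjusted p = 0.894) for cage group 4. The cage groups themselves did not differ beyond their error, at -0.29 (SE 0.25, adjusted p = 0.908 by limma) for group 5 minus group 4.

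No member was called in the 3-6 h study at 200, 100 or 30 mg/kg, where 0.0693%, 0.416% and 0.0154% of genes were called. By limma, 1, 3 and 0 of 9 members had an unadjusted p under 0.05, beside 7.21%, 10.2% and 7.03% of all genes. Besides INHBA, these were FSTL1 (-0.21, SE 0.10) and FSTL3 (-0.22, SE 0.09) at 100 mg/kg, with adjusted p-values of 0.431 and 0.391.
FST lay low in all arms of this study. It had a median of 1.05 FPKM in vehicle tumors and 1.48 FPKM at 200 mg/kg, and the vehicle tumors reached from a listed 0 to 6.49 FPKM, a range that held all treated tumors. The 95% interval of its log2 fold change at 200 mg/kg was -0.91 to 0.59. Cage groups of the same arm gave 0 member calls of 9 in each of the 4 comparisons, in which 0.0154% (200 mg/kg), 0.0462% (100 mg/kg), 0% (30 mg/kg) and 0.331% (vehicle) of genes were called, and 0, 0, 1 and 1 of 9 members had an unadjusted p under 0.05 by limma, beside 7.1%, 7.49%, 6.37% and 9.95% of all genes.

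At 1 h no member was called at 200, 100 or 30 mg/kg, where 0%, 0.0077% and 0% of genes were called, and 0 of 9 members had an unadjusted p under 0.05 at any dose by limma, beside 3.35%, 5% and 4.4% of all genes. INHBA was 62.9 ± 13.4 FPKM (SD, n = 5) in vehicle tumors and 69.6 ± 6.3 FPKM (SD, n = 4) at 200 mg/kg, with a log2 fold change of 0.17 (95% interval -0.35 to 0.69). FST varied widely, and replicate 3 at 100 mg/kg reached 17.7 FPKM while replicates 1 and 2 of the same group measured 0.458 and 0.683 FPKM.

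For 200 mg/kg, the fold changes of 2 studies were subtracted, and no member was called in any of the 3 pairs of studies, in which 1.70% (24 h minus 3-6 h), 0.569% (24 h minus 1 h) and 0% (3-6 h minus 1 h) of genes were called. The differences that involve the 24 h study rest on the values known when the members were chosen and are given as a description. For 3-6 h minus 1 h, 1 of 9 members had an unadjusted p under 0.05 by limma, beside 4.65% of all genes. The difference for INHBA between 3-6 h and 1 h was -0.88 (SE 0.31, unadjusted p = 0.00663, adjusted p = 1.00 by limma). For FST and INHBB the differences between 24 h and 3-6 h were -1.86 (SE 0.68) and -0.69 (SE 0.27), and for FSTL1 -0.46 (SE 0.17). The time after dosing and the study cannot be told apart.

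**Figure D2:**
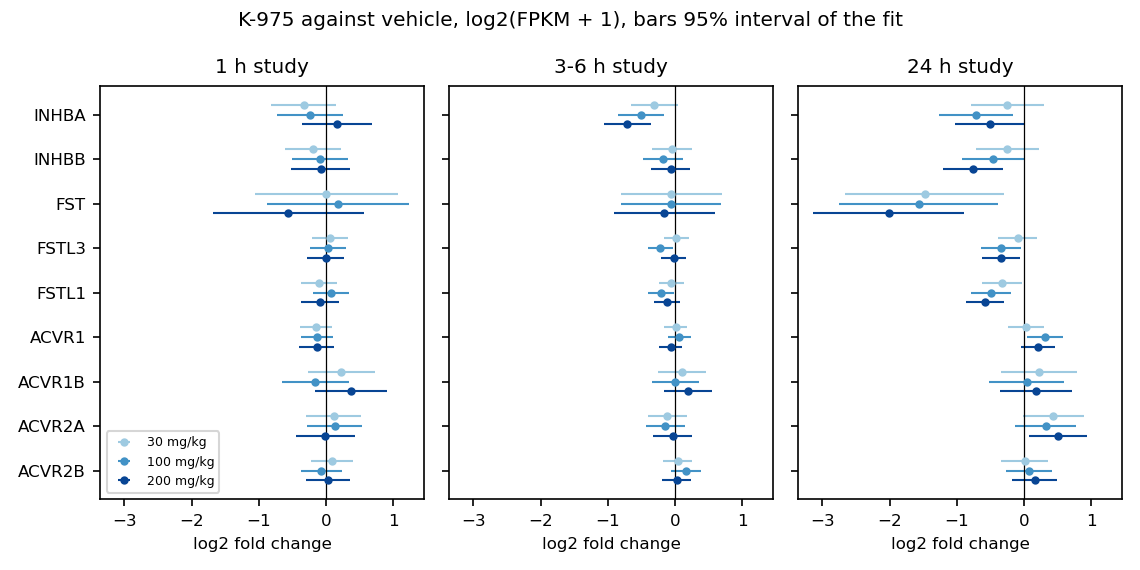
Log2 fold change of each gene against vehicle of the same study at 30, 100 and 200 mg/kg, with the 95% interval of the fit as a bar, in the 1 h, 3-6 h and 24 h studies. At 24 h FST lies farthest to the left, with -2.01 at 200 mg/kg, and at 3-6 h INHBA does, with -0.71 at 200 mg/kg.

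Handling and vehicle were assessed by comparing vehicle with untreated tumors. No member was called at 24 h, 3-6 h or 1 h, and 0%, 0% and 0% of genes were called, while 0, 1 and 2 of 9 members had an unadjusted p under 0.05 by limma, beside 4.19%, 4.82% and 4.73% of all genes. FST at 24 h had the largest difference, 1.09 higher in vehicle on the log2 scale (SE 0.57, adjusted p = 1.00 by limma). At 1 h ACVR2A was 9.83 ± 2.38 FPKM (SD, n = 5) in untreated and 6.41 ± 1.74 FPKM (SD, n = 5) in vehicle tumors, a log2 fold change of -0.55 (SE 0.21, unadjusted p = 0.00917, adjusted p = 1.00 by limma). INHBB was 2.06 ± 0.47 FPKM in untreated and 3.12 ± 0.49 FPKM in vehicle tumors at 1 h, a log2 fold change of 0.44 (SE 0.21, adjusted p = 1.00 by limma). The difference of ACVR2A between these control groups was of the size of its difference between 200 mg/kg and vehicle at 24 h (0.51).

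As a description, the FPKM of the antagonist FSTL3 was divided by that of the ligand subunit INHBA in each tumor. FST and INHBB do not enter this ratio. At 3-6 h the ratio was 1.77 ± 0.48 (SD, n = 10) in vehicle tumors and 2.92 ± 0.87 (SD, n = 10) at 200 mg/kg, with 2.15 ± 0.44 and 2.25 ± 0.69 at 100 and 30 mg/kg (SD, n = 10 each). The highest vehicle tumor had 2.59, and 7 of 10 tumors at 200 mg/kg lay above it. FSTL3 itself had a mean of 95.5 FPKM in vehicle tumors and 94.6 FPKM at 200 mg/kg. The difference in the ratio at 3-6 h therefore restates that of INHBA and is no separate result.
At 24 h the ratio was 2.18 ± 0.33 (SD, n = 4) in vehicle tumors, 2.84 ± 0.23 (SD, n = 4) at 100 mg/kg and 2.59 ± 1.00 (SD, n = 5) at 200 mg/kg, where the ratio spread from 1.36 to 3.96. At 30 mg/kg it was 2.46 ± 0.57 (SD, n = 4). At 1 h it was 1.86 ± 0.38 (SD, n = 5) in vehicle tumors, 2.47 ± 0.50 at 30 mg/kg and 2.26 ± 0.48 at 100 mg/kg (SD, n = 5 each) and 1.63 ± 0.21 (SD, n = 4) at 200 mg/kg, so at 1 h the lower doses lay above vehicle in the mean and 200 mg/kg below it. Untreated tumors had mean ratios of 1.64, 1.51 and 1.72 at 1 h, 3-6 h and 24 h.

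The other genes of the pathway were taken from a list of 47, of which 31 passed the filter on low values. At 24 h 2 of 31 were called lower and 0 higher at 200 mg/kg, and 1 lower and 0 higher at 100 mg/kg, beside 7.23% and 1.02% of all genes called. The share at 200 mg/kg was near that of all genes. At 30 mg/kg at 24 h and in the other 6 comparisons of a dose with vehicle, 0 of 31 were called. The median log2 fold change of the 31 genes at 200 mg/kg at 24 h was 0.04, equal to the median of 0.04 over all genes tested, and that of the 9 members was -0.34.
TGFBR1, the type I receptor of TGF-beta, was 30.2 ± 6.5 FPKM (SD, n = 4) in vehicle tumors and 16.8 ± 4.4 FPKM (SD, n = 5) at 200 mg/kg, a log2 fold change of -0.82 (SE 0.18). BAMBI, a pseudoreceptor that lacks the kinase domain and dampens signaling, was 21.8 ± 4.4 FPKM (SD, n = 4) in vehicle tumors and 13.0 ± 3.7 FPKM (SD, n = 5) at 200 mg/kg (-0.72, SE 0.14), and 12.7 ± 2.5 FPKM (SD, n = 4) at 100 mg/kg (-0.73, SE 0.15).
By role, 0 of 5 tested ligands and inhibin subunits, 2 of 8 receptors, 0 of 3 extracellular antagonists, 0 of 5 SMAD transducers, 0 of 7 feedback regulators and 0 of 3 ligand processing genes were called at 200 mg/kg at 24 h. The transducers of activin signaling were present, with medians of 52.7 FPKM for SMAD2, 61.7 FPKM for SMAD3 and 49.8 FPKM for SMAD4, while the inhibin alpha subunit INHA had a median of 0.76 FPKM and NODAL, TDGF1 and LEFTY2 had medians of 0. CCN1 and CCN2, well-known targets of YAP1 and TEAD, had log2 fold changes of -1.26 (SE 0.20) and -1.44 (SE 0.21) at 200 mg/kg at 24 h. At 3-6 h these were -0.72 (SE 0.13) and -0.63 (SE 0.14) at 200 mg/kg, and -0.78 (SE 0.13) and -0.63 (SE 0.14) at 100 mg/kg. Both genes were called in these 3 comparisons and in no other comparison of a dose with vehicle.

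The genes whose pattern was most like that of FST and INHBA were described by the Pearson correlation of log2(FPKM + 1) over the 91 libraries. These libraries share groups, studies and scaling, and no p is given. FST was most like BASP1 (0.67), F3, which encodes tissue factor (0.67), RRBP1 (0.65), KRT34 (0.63) and SLCO2A1 (0.63). After each group's mean was subtracted, the 5 genes most like FST were CCL5 (0.62), VARS1 (0.60), F3 (0.59), BASP1 (0.56) and CAV1 (0.56), so F3 and BASP1 were in both sets.
INHBA was most like NEDD9 (0.77), TPM1 (0.74), ADAMTS15 (0.74), OXTR (0.72) and MID1 (0.70). Among the members, the closest pair was FSTL1 and FSTL3, at 0.67 over the libraries and 0.53 within groups. FST and INHBA had a correlation of -0.04 over the libraries and -0.33 within groups. FSTL1 was negatively correlated with ACVR1 (-0.57) and ACVR1B (-0.49) over the libraries.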

How the data were processed

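Tumor RNA was preserved in RNAlater, extracted with a miRNeasy kit and sequenced after KAPA RNA HyperPrep library preparation and KAPA HyperCap enrichment. The authors deposited FPKM, with 1 column per library. The submitters' processing notes name STAR and GRCh38, and the quantification tool is not given in the sources used here. FPKM are estimates that hold no read counts, so neither count tests nor sampling intervals were possible. Of 20555 entries, 316 further entries of 284 gene IDs were left out. Blank cells (32) were read as 0. Groups were taken from the labels. The members, the gene lists and the rules, including the limit of 10000 genes for shallow libraries, were chosen with earlier results of these data known.

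Differences were tested with limma 3.58.1 (R 4.3.3; lmFit, eBayes with trend and robust) on log2(FPKM + 1), 1 coefficient per group, with Benjamini-Hochberg adjustment over 12995 genes. The steps were tested on simulated data. At 3-6 h the mean of 2 cage groups was compared with the mean of 2 vehicle cage groups. Fold changes on this scale understate changes of low genes such as FST. Genes named are the 9 members, pathway genes called in any comparison with vehicle, the 5 genes most like FST or INHBA, and CCN1 and CCN2. Alternatives were all 94 libraries, a pseudocount of 0.1, no filter, only the groups compared, quantile normalization, median-of-ratios scaling, eBayes without trend and robust, untreated tumors or 1 vehicle cage group as control, and leaving out each library. Promoter letters were read from RefSeq windows (GRCh38.p14), and exons from GENCODE 29.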

Additional observations from a re-analysis of the deposited data

Results flagged for a closer look

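Within the 19 groups, 171 sets of values of a member were examined for a tumor far from the others of its group by Dixon's criterion, which chance meets in about 1 of 20 sets. There were 10 such tumors, each the highest of its group. At 24 h they were FST in untreated replicate 5 (12.5 FPKM, next 2.70), FSTL1 at 200 mg/kg in replicate 2 (476 FPKM, next 354), ACVR1 at 100 mg/kg in replicate 3 (24.4 FPKM, next 18.97) and ACVR1B at 30 mg/kg in replicate 2 (15.2 FPKM, next 10.1). At 3-6 h they were FST at 100 mg/kg in replicate 5 of cage group 6 (5.93 FPKM, next 0.867), FSTL1 at 30 mg/kg in replicate 3 of cage group 8 (611 FPKM, next 468), ACVR2B at 200 mg/kg in replicate 4 of cage group 5 (10.2 FPKM, next 6.84), INHBB in vehicle replicate 2 of cage group 3 (3.20 FPKM, next 1.88) and INHBB at 100 mg/kg in replicate 5 of cage group 7 (2.32 FPKM, next 1.30). At 1 h INHBB at 200 mg/kg in replicate 3 stood apart (3.23 FPKM, next 2.81).

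The shallow libraries, which the comparisons do not use, held 4 values of members above all vehicle and untreated tumors of their study. In replicate 1 of 200 mg/kg at 1 h, FST was 41.6 FPKM against a highest control of 7.64 FPKM, INHBB 6.07 against 3.61 FPKM and ACVR1 23.2 against 17.6 FPKM. In replicate 1 of 30 mg/kg at 24 h, FSTL1 was 621 against 598 FPKM, while the other 8 members were listed at 0.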

How the results depend on the processing

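FST, FSTL1 and INHBB, the 3 members called at 24 h and 200 mg/kg, were called with a pseudocount of 0.1, without the filter, with quantile or median-of-ratios scaling, with eBayes without trend and robust and with only the groups compared. With all 94 libraries 0 members and 0 genes of the table were called there. In that fit 3 members (FST, FSTL3 and INHBA) were called at 30 mg/kg at 24 h, where 2908 genes were called. The median log2 fold change over all genes was -0.65 in this comparison. Between the doses 1 member (FSTL3) was called, with up to 4452 genes called in a comparison. Against untreated tumors at 24 h 2 members (FSTL1 and INHBA) were called at 200 mg/kg, beside 1077 of the 12995 genes tested. At 100 mg/kg 1 member (INHBA) was called, beside 257 genes. Leaving out 1 library gave 1 to 3 called members at 24 h and 200 mg/kg, 0 to 1 at 24 h and 100 mg/kg and 0 to 1 at 3-6 h and 200 mg/kg. It gave 0 to 1 for the difference between studies, where FSTL1 was called without replicate 2 of 200 mg/kg at 24 h. In the fits with 1 called member, all genes called numbered 557 and 584 at 24 h and 200 mg/kg and 285 at 24 h and 100 mg/kg. They numbered 23 to 27 at 3-6 h and up to 619 for the difference between studies. The other counts of called members stayed at 0 in every alternative run.

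Changes of sign were limited to comparisons in which the member was not called. With all 94 libraries the log2 fold changes of ACVR1, ACVR1B, ACVR2A and ACVR2B at 24 h became -0.56, -0.64, -0.28 and -0.56 at 100 mg/kg and -0.79, -0.49, -0.19 and -0.61 at 30 mg/kg, where the shallow libraries list these receptors at 0. Quantile normalization gave -0.013 for ACVR1B at 100 mg/kg and -0.044 for ACVR2B at 30 mg/kg, where median-of-ratios scaling gave -0.0023. Against untreated tumors INHBB at 30 mg/kg was 0.11. Leaving out 1 library gave -0.31 to 0.31 for ACVR1B and -0.054 to 0.14 for ACVR2B at 100 mg/kg, and -0.033 to 0.11 for ACVR1 and -0.12 to 0.079 for ACVR2B at 30 mg/kg.

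No paired analysis was possible because the labels number no replicates, and the numbers used here were given in accession order. FPKM carry no depth, so no limit from counting can be given for low genes such as FST.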
